A study of Mus musculus with 6 samples.

Results

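The MHC class I and interferon response genes described here are 35 genes of antigen presentation to cytotoxic T cells and of the response to interferon. They were chosen by name, as every probe set whose platform annotation gives 1 of these symbols. Of the 35 genes, 32 had such probe sets, 61 in all out of 45037 on the array. Psme2, H2-T23 and Isg15 were annotated only on probe sets shared with other symbols and have no value here.

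Gene expression in mouse cerebral cortex was measured on 6 Affymetrix expression arrays of total RNA. The labels name 3 arrays wild type and 3 Egr1/Egr3 double knockout (DKO below). Egr1 and Egr3 are zinc finger transcription factors that neurons induce with activity. No strain, sex, age, allele or knockout method is labelled. The labels do not say whether arrays of a group come from different animals. By a sex difference given below, the DKO-labelled arrays come from more than a single animal. Each p-value speaks only of how these arrays spread, which may be largely technical. The question is which transcripts of cortex depend on the 2 factors. Psmb9 and Tap1 are of interest as reported Egr1 targets.

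Class I molecules show peptides of a cell's own proteins at its surface. The immunoproteasome cuts these peptides, the TAP transporter carries them into the endoplasmic reticulum, and tapasin helps load them onto a class I heavy chain paired with beta-2-microglobulin. Interferons bind paired receptors and, through JAK kinases and STAT and IRF factors, raise the level of these genes and of many antiviral effectors. In healthy cortex these genes are known to be low in neurons and higher in microglia and endothelial cells. Fewer cells of a type and less RNA per cell cannot be told apart in bulk RNA.

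Psmb9 and Tap1 are transcribed away from each other on mouse chromosome 17, and the bases between their starts are shown because they are shared by both reported Egr1 targets. The sequence, from RefSeq on GRCm38.p6, is chr17:34187331-34187555, 225 bases, plus strand, read towards Tap1, with capitals marking a GC box (GGGCGG, here on the opposite strand).
Psmb9 and Tap1: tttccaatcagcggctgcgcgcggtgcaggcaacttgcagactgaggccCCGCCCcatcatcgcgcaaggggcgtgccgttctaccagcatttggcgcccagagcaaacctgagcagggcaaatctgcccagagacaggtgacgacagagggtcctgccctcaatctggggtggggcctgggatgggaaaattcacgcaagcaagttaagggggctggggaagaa

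That stretch held no match to the Egr consensus GCGNGGGCG or to the core of the interferon-stimulated response element (GAAA, any 2 bases, GAAA) on either strand. The same motifs were searched in the 250 bases before each start of the 32 members that the RefSeq promoter table lists, which have 38 promoters. Tap2, Ifi27 and Usp18 are not in that table. The Egr consensus was found in 3 of the 38 member promoters and in 4.7% of all 32851 promoters. Ifngr2 is 1 of the 3, and the windows of the others are not shown here. It is given as 30 bases because it bears the letters the targeted factors are known to bind, with the match in capitals. It lies at chr16:91546994-91547023 on the plus strand of GRCm38.p6.
Ifngr2: cacgggccggGCGGGGGCGgggccgggcgc

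The response element core was found in 10 of the 38 member promoters, against 2.98% of all promoters. The GC box, which can overlap an Egr match, was found in 19, against 32.7%. Of the 10 genes with a response element core, those with both a single gene symbol and a bright enough probe set were B2m, Stat2, Ifit3 and Ifitm2. Their windows are shown with the match in capitals (1 of the 2 matches of Ifit3), and Bst2, which was dim, is shown for its overlapping pair of matches. They lie at chr2:122147538-122147567 (plus), chr10:128270266-128270295 (plus), chr19:34583397-34583426 (plus), chr7:140955988-140956017 (minus) and chr8:71537580-71537609 (minus).
B2m: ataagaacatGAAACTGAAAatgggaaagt
Stat2: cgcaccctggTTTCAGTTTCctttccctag
Ifit3: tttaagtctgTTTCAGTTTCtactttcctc
Ifitm2: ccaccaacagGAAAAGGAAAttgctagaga
Bst2: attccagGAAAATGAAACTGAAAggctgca
Each match is a run of letters and not a measured site.

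The arrays differed in ways whose effect on the members was not tested. Egr3 read 1594 ± 941 on the wild type arrays and 405 ± 89.8 on the DKO-labelled ones (SD, n = 3 each), lower as labelled, with a log2 change of -1.80 (SE 0.32 and, by limma, adjusted p = 0.0361). Egr1 went against the label, at 1577 ± 423 and 2473 ± 309 (SD, n = 3 each). Directions below are therefore those of the labels. The title of DKO replicate 1 is worded like the wild type titles. DKO replicate 2 carried RNA of a female (Xist signal 3140, at most 42.5 on the other arrays). The Y-linked gene Eif2s3y read 0.63 there and 383 to 609 on the other arrays, so these carried RNA of males. The DKO-labelled arrays thus do not all come from the same animal. In wild type replicate 1 the spiked controls read 0.432 of their median over arrays. The summed signal of 3 choroid plexus markers was 10700 in wild type replicate 3 and 4757 in DKO replicate 1, against 78.5 to 417 on the other 4 arrays. For Gapdh the 3' to 5' signal ratio, which reflects RNA integrity, was 0.806 to 0.873 in wild type against 0.881 to 0.9497, with no overlap. The same ratio for beta-actin overlapped (1.575 to 1.946 and 1.682 to 1.888). Cortical markers were present, with 7 of 8 neuronal markers on tested probe sets. Of 8 markers of lymphocytes and blood leukocytes 6 had a probe set and 1 was tested. The T cell markers Cd3e and Cd3g read at most 10.1, and the brightest Cd8a probe set read 31.8, 11.4 and 4.30 in wild type against 40.9, 31.98 and 33.3, without overlap. Its nearest values, 31.8 and 31.98, were almost equal, and every other Cd8a probe set overlapped. No Cd8a probe set was bright enough to be tested, and with all probe sets fitted the brightest had a limma adjusted p of 0.411. The number of arrays limits the precision.

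No member passed the test between the groups. Of 30 tested member probe sets, from 21 genes, 0 passed an adjusted p of 0.05 in limma, where 1.02% of all 22518 tested probe sets did, and 3 had an unadjusted p under 0.05, where 16.6% of all did. Only probe sets with a mean log2 signal over the array-wide median were tested. In 6 of the 30 member probe sets the groups stood apart without overlap (3 higher, 3 lower on the DKO-labelled arrays), against 22.3% of all tested (11.5% higher, 10.7% lower). By their brightest probe set 12 of the 21 genes stood higher and 9 lower, and the median log2 difference was 0.02, beside 0.0093 over all tested probe sets. Log2 differences are the double knockout label minus wild type on log2(signal + 16), a scale that shrinks the change of dim probe sets. By brightest probe set, the 95% interval of every one of the 21 genes lay within 1 on either side on this scale, a 2-fold change of signal + 16. The bounds ran from -0.71 to 0.71, and 9 genes lay within 0.5. A dimmer Ifngr2 probe set given below had a wider interval, -1.65 to 0.44. Signals of different probe sets are not compared in level.

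**Figure D1:**
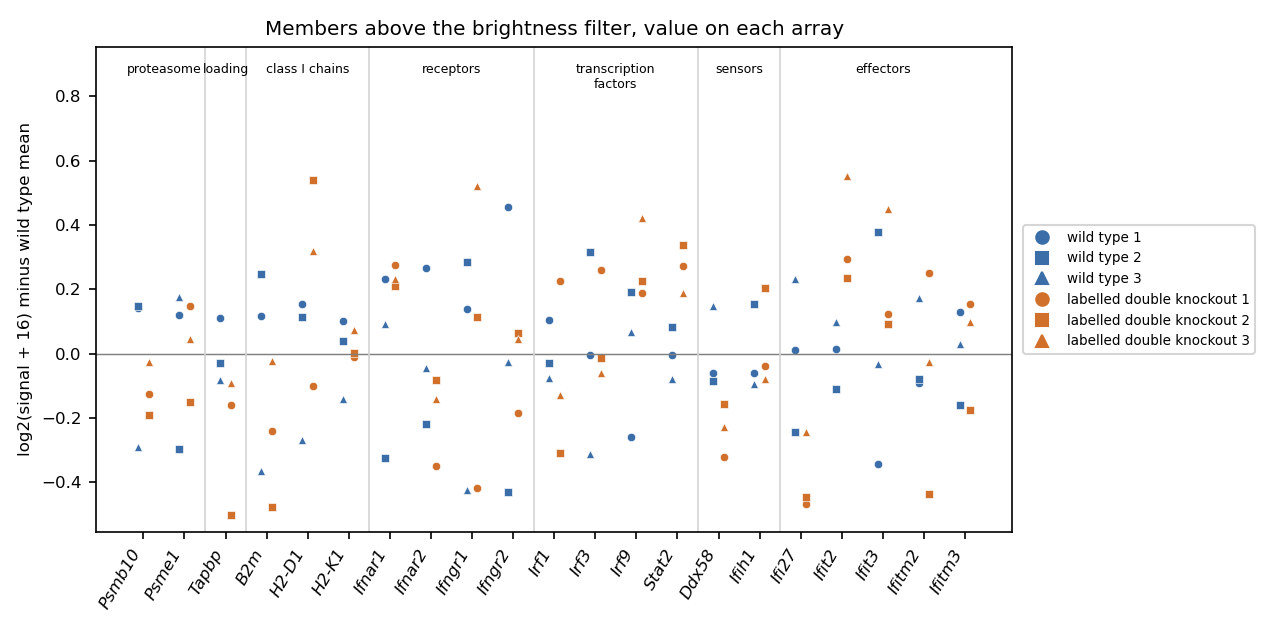
Value of the brightest tested probe set of each of 21 genes on each of the 6 arrays, as log2(signal + 16) minus the gene's wild type mean, ordered by role (vertical lines separate roles). Blue points are the 3 wild type arrays and orange points the 3 arrays labelled double knockout; for most genes the colours intermingle, and for Tapbp, Stat2, Ddx58 and Ifit2 they do not.

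**Figure D2:**
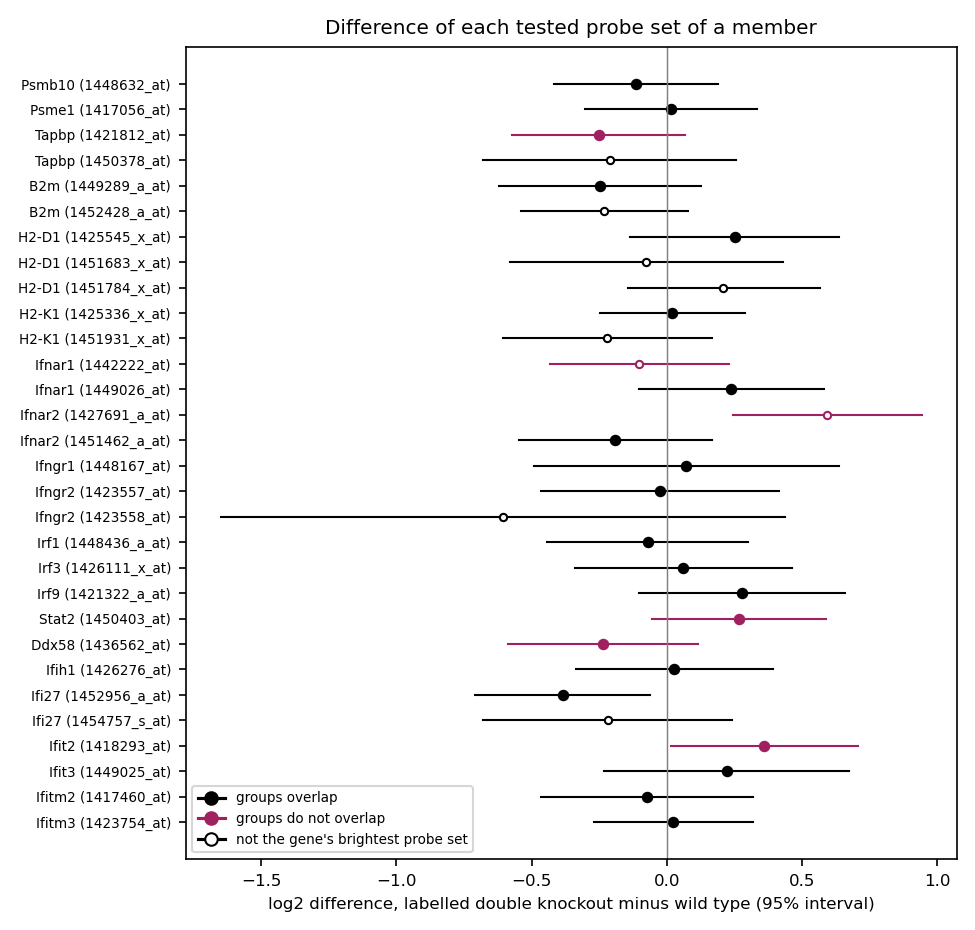
Log2 difference (labelled double knockout minus wild type) of the 30 tested member probe sets, with 95% intervals from limma. Filled points are the brightest probe set of a gene, open points its others, and coloured points those whose groups do not overlap; the highest value is that of an Ifnar2 probe set at 0.59, and none passes an adjusted p of 0.05.

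Transcripts of the proteins that make peptides were measured mainly through Psmb10 and Psme1. Psmb10, a catalytic subunit of the immunoproteasome, read 437.8, 439.9 and 320.2 in wild type against 361, 344 and 388 on the DKO-labelled arrays. Psme1, a subunit of the proteasome activator PA28, read 529.5, 392 and 551 in wild type against 540.3, 436 and 501.5 in the other group. In both genes the groups overlapped, with wild type replicate 3 lowest for Psmb10 and wild type replicate 2 lowest for Psme1. The log2 differences were -0.11 (SE 0.14) and 0.01 (SE 0.14), with 95% intervals of -0.42 to 0.19 and -0.30 to 0.33. The constitutive catalytic subunits Psmb5, Psmb6 and Psmb7, which the immune subunits replace, differed by 0.03, 0.04 and 0.06. Psme1, Psme2 and Irf9 lie within 20 Mb of Egr3 on mouse chromosome 14.

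The other immune subunits and both TAP chains were dim on every array. Psmb9, the immunoproteasome subunit reported as an Egr1 target, read 23.2, 15.02 and 12.7 in wild type against 2.46, 12.3 and 18.2 on the DKO-labelled arrays. All 6 values lay below the array medians of 36.2 to 39.5, and the groups overlapped. Tap1, the other reported target and a chain of the peptide transporter, had 4 probe sets. Its brightest read 4.96, 13.8 and 23.5 in wild type against 12.1, 19.6 and 3.78 in the other group, and the others read 0.754 to 17.3. No Tap1 probe set reached the array median on any array, and each overlapped between the groups. With no filter, limma gave Psmb9 a log2 difference of -0.32 (SE 0.26, adjusted p = 0.679) and this Tap1 probe set -0.11 (SE 0.296, adjusted p = 0.924), both on the log2(signal + 16) scale. The 95% intervals were -0.92 to 0.28 for Psmb9 and -0.80 to 0.59 for Tap1, and no difference was detected in either gene. Psmb8, also an immune subunit, read 27.6, 28.2 and 24.8 in wild type against 16.3, 15.05 and 30.5 in the other group on its brighter probe set, and Tap2, the partner chain of Tap1, read 16.7 to 31.95 over all arrays.

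**Figure D3:**
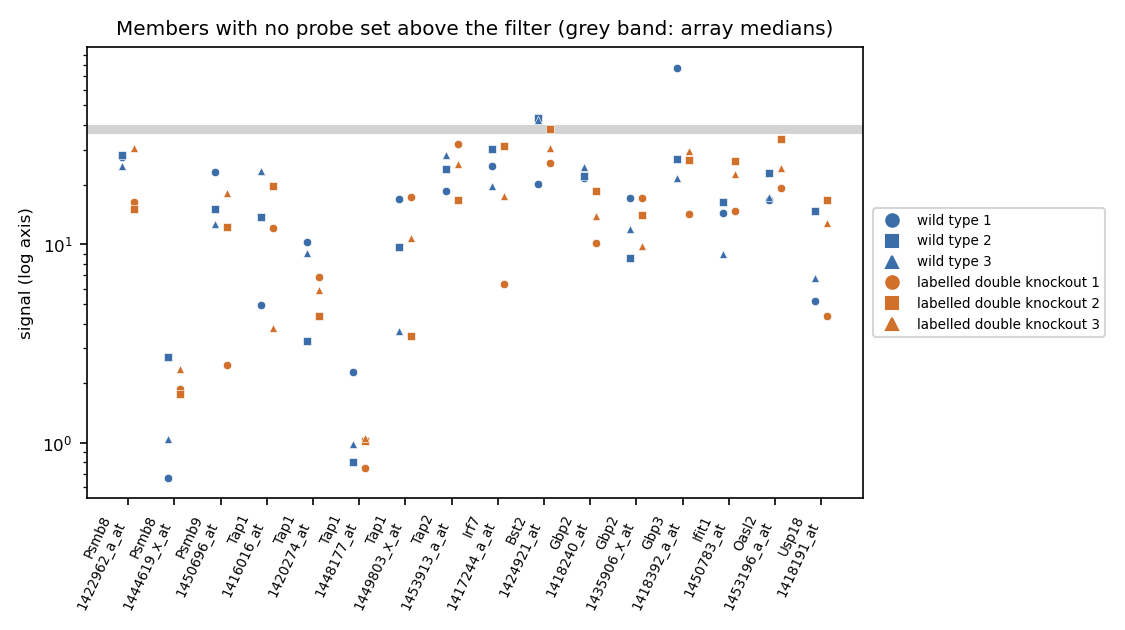
Signal on a log axis of the 16 probe sets of the 11 members with no probe set above the filter, on each array (blue wild type, orange labelled double knockout; marker shapes are replicates). The grey band spans the array medians of 36.2 to 39.5, and every Psmb8, Psmb9, Tap1 and Tap2 value lies below it.

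Tapbp, which encodes tapasin, stood lower on all DKO-labelled arrays. It read 187.3, 169 and 162 in wild type against 153, 117 and 161 in the other group. The nearest values, 162 and 161, were almost equal, and the lowest was that of replicate 2. The log2 difference was -0.25 (SE 0.14 and, by limma, adjusted p = 0.415). A dimmer Tapbp probe set overlapped (50.1 to 73.1 and 34.4 to 68.1, log2 difference -0.21).

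The tested class I chains overlapped between the groups. B2m, the light chain of class I molecules, read 1041, 1140 and 741.5 in wild type against 809, 683.5 and 943 on the DKO-labelled arrays. Wild type replicate 3 lay below 2 of the 3 arrays of the other group, as it did on a second probe set (646 to 874 and 587.5 to 733). Their log2 differences were -0.25 (SE 0.17, 95% interval -0.62 to 0.13) and -0.23 (SE 0.14, -0.54 to 0.08). H2-K1, a classical heavy chain, read 198, 189.7 and 165 in wild type against 182, 184 and 194.5 in the other group on its brightest probe set, a log2 difference of 0.02 (SE 0.12). H2-D1, the other classical heavy chain, read 379.6, 369 and 279.6 in wild type against 316, 501 and 427 in the other group, a log2 difference of 0.25 (SE 0.17 and, by limma, adjusted p = 0.504). Of the 13 H2-K1 and H2-D1 probe sets, 11 carry the platform's marks for probes that can match related genes, so single class I genes cannot be told apart with certainty. Further tested probe sets differed by -0.22 for H2-K1 and by 0.21 and -0.08 for H2-D1. A dim H2-D1 probe set below the filter did not overlap, at 23.8, 29.3 and 17.9 against 37.8, 37.3 and 36.9, and its difference with no filter was 0.44 (SE 0.18 and, by limma, adjusted p = 0.421).

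Among the interferon receptors, Ifnar2 showed the largest difference of any tested member probe set except for the widely spread Ifngr2 one given below. Ifnar2 encodes the chain of the type I interferon receptor that binds interferon with high affinity, and is known to be made in soluble and membrane-bound forms. Its dimmer tested probe set read 36.4, 28.7 and 31.1 in wild type against 51.4, 62.1 and 56.2 on the DKO-labelled arrays. All 3 arrays of that group stood above all wild type arrays, a log2 difference of 0.59 (SE 0.16 and, by limma, adjusted p = 0.111, 0.0820 to 0.352 over the alternatives). Its brighter probe set read 151.6, 103.8 and 119 in wild type against 93.5, 115.7 and 110.4 in the other group, which overlapped, with a log2 difference of -0.19 (SE 0.16). The remaining, dimmer probe set overlapped too, at 25.6 to 40.4 and 28.04 to 40.7.

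The ratio of the dimmer to the brighter Ifnar2 probe set was 0.240, 0.277 and 0.261 in wild type against 0.549, 0.537 and 0.509 on the DKO-labelled arrays. The ratios were far apart between groups and close within them, 0.259 ± 0.0182 against 0.531 ± 0.0208 (SD, n = 3 each). This ratio was chosen after its values were seen. Fitted with limma over all 8521 pairs of a further tested probe set with the brightest of its gene, the log2 ratio differed by 0.79 (SE 0.13, adjusted p = 0.127), ranked 13 by p, and did not pass; 0.0117% of pairs passed. A ratio within an array shows unequal change of the signals and not which of them changed. The parts of the transcript that the probe sets match are not given in the sources used here.

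**Figure D4:**
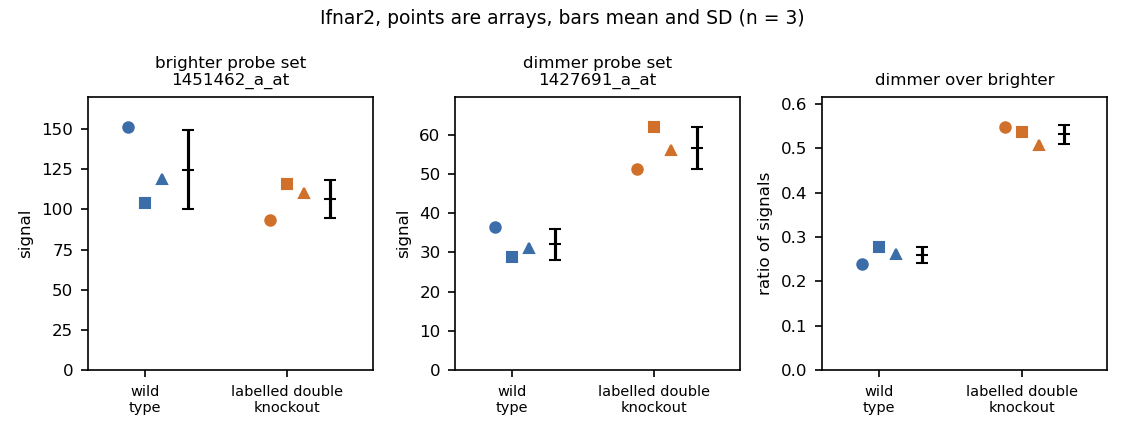
Signal of the brighter and of the dimmer tested Ifnar2 probe set, and the ratio of dimmer to brighter, on each array (points; bars are mean and SD, n = 3, all axes from 0). The ratio lies from 0.240 to 0.277 in wild type and from 0.509 to 0.549 in the arrays labelled double knockout.

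Ifnar1, the other chain of that receptor, read 187, 122 and 169 in wild type against 194, 184 and 187 on the DKO-labelled arrays, a log2 difference of 0.24 (SE 0.15). The groups overlapped, and wild type replicate 2 was low. A dim second probe set did not overlap, at 43.1, 42.3 and 41.3 against 39.5, 36.7 and 38.6, with a log2 difference of -0.10 (SE 0.15). The Ifnar1 probe sets thus had opposite signs, and neither passed.

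The interferon gamma receptor chains varied more between arrays than between groups. Ifngr1, the ligand-binding chain, read 103.5, 116 and 64.97 in wild type against 65.2, 101.4 and 139.7 in the other group. Ifngr2, the signalling chain, read 364, 189 and 255 in wild type against 227, 273 and 269 in the other group. Their log2 differences were 0.07 (SE 0.25) and -0.02 (SE 0.198). A dimmer Ifngr2 probe set read 7.58 on DKO replicate 1 alone and 63.8 to 96.2 on the other 5 arrays, so its log2 difference of -0.61 (SE 0.47 and, by limma, adjusted p = 0.557) rested on that array and was 0.09 without it. The promoter of Ifngr2 holds the Egr consensus letters shown above, and its brighter probe set overlapped between the groups.

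Of the transcription factors that carry the signal, Stat2 did not overlap between the groups. Stat2, which joins Irf9 in the complex that binds the response element, read 52.9, 57.1 and 49.4 in wild type against 67.4, 71.2 and 62.7 on the DKO-labelled arrays. Each array of that group exceeded each wild type array, by a log2 difference of 0.27 in the means (SE 0.15 and, by limma, adjusted p = 0.391), and a dimmer probe set below the filter differed by 0.01 with no filter. Irf9 read 36.5, 55.75 and 49.8 in wild type against 55.6, 57.5 and 68.1 in the other group. The Irf9 groups overlapped only narrowly, where 55.75 met 55.6, with a log2 difference of 0.28 (SE 0.17 and, by limma, adjusted p = 0.447).

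Irf1, an interferon-induced activator of class I genes, read 96.2, 86.1 and 82.9 in wild type against 105.9, 68.1 and 79.4 in the other group, with a log2 difference of -0.07 (SE 0.17). Irf3, a factor that viral sensing activates, read 102.5, 132 and 79.9 in wild type against 126, 101.9 and 98.2 in the other group, with a difference of 0.06 (SE 0.18). In both genes the values of the groups overlapped. The other Irf3 probe sets, all below the filter, also overlapped. With no filter they differed by 0.50 (SE 0.25), -0.15 (SE 0.36) and -0.01 (SE 0.21). Irf7, the inducible partner of Irf3, was dim and read 6.30 to 31.4.

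The sensors of viral RNA, Ifih1 (MDA5) and Ddx58 (RIG-I), lay near the array medians. Ddx58 read 41.1, 40.1 and 49.95 in wild type against 31.7, 37.4 and 34.8 on the DKO-labelled arrays, lower on all 3 arrays, with a log2 difference of -0.24 (SE 0.16 and, by limma, adjusted p = 0.492). A dimmer Ddx58 probe set below the filter had the opposite sign with no filter, 0.59 (SE 0.23 and, by limma, adjusted p = 0.407). The remaining Ddx58 probe set, at most 7.81 on any array, had the same sign as the tested one, -0.17 (SE 0.14). Ifih1 read 39.5, 48.4 and 38.2 in wild type against 40.3, 50.6 and 38.8 in the other group. The Ifih1 groups overlapped, with replicate 2 highest in both, and differed by 0.03 (SE 0.16).

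Of the 12 interferon-induced effectors 5 were tested, and their differences had both signs. Ifit2, which binds viral RNA, read 54.4, 48.5 and 58.7 in wild type against 69.6, 66.1 and 86.1 on the DKO-labelled arrays. The groups did not overlap, with a log2 difference of 0.36 (SE 0.16, unadjusted p = 0.0430, limma adjusted p = 0.284). Ifit3, a partner of Ifit1 and Ifit2, read 41.9, 79.6 and 55.8 in wild type against 63.98, 62.4 and 84.5 in the other group, which overlapped, with a difference of 0.22 (SE 0.20). The related Ifit1 was dim and also stood higher on average, at 13.2 ± 3.89 and 21.2 ± 5.92 (SD, n = 3 each). These genes lie close together on mouse chromosome 19, and the 3 had the same sign without any of them passing.

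Ifi27, a small interferon-induced membrane protein, stood at the other end. It read 235, 194 and 276 in wild type against 164, 167 and 194.3 on the DKO-labelled arrays, where 194.3 met the lowest wild type value. The log2 difference was -0.39 (SE 0.15, unadjusted p = 0.0245, limma adjusted p = 0.228), and -0.22 (SE 0.21) on its second probe set. Ifitm2 and Ifitm3, which block virus entry at membranes, read 174 to 212.5 and 234.5 to 290.2 in wild type and 134 to 225 and 232 to 295 in the other group. Both overlapped widely, with differences of -0.07 (SE 0.18) and 0.03 (SE 0.13).

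The remaining effectors, besides Isg15, which has no value here, were below the filter on every probe set. Usp18, a protease that removes Isg15, read 4.35 to 16.7, and Oasl2, of the oligoadenylate synthetase family, 16.8 to 33.8. Bst2, or tetherin, which holds budding virus at the cell surface, read 20.2 to 43.4, above the array median on 3 of the 6 arrays. The guanylate-binding protein Gbp2 did not overlap on its brighter probe set, at 21.6, 22.05 and 24.5 in wild type against 10.2, 18.7 and 13.9 in the other group (log2 -0.37 with no filter, SE 0.17, limma adjusted p = 0.478). A dimmer Gbp2 probe set overlapped and had the opposite sign, 0.06 with no filter (SE 0.18). Gbp3, a relative of Gbp2, read 77.6 on wild type replicate 1 alone and 14.3 to 29.5 on the other arrays.

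The extreme values of the members were spread unevenly over the arrays. Wild type replicate 3 gave the lowest value for 7 of the 21 genes and DKO replicate 2 for 5, while DKO replicate 3 gave it for 0. The highest value fell on each array for 3 or 4 genes. The per-array median over the 21 genes was 0.11, -0.03 and -0.05 in wild type and -0.01, -0.01 and 0.05 on the DKO-labelled arrays. Genes with a response element core in their promoter had 2 higher and 2 lower among 4 tested, with a median log2 difference of 0.08, and those listed without it had 10 higher and 6 lower among 16, with a median of 0.02.

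Of 101 further genes of the pathway 47 had a tested probe set, with 74 such probe sets in all. Of the 74 probe sets 2 fell and 0 rose, where 0.591% of all tested probe sets fell and 0.426% rose, and 45 genes did not pass. This list was written with results of these data known. By brightest probe set the median log2 difference of the 47 genes was 0.01, with 24 higher and 23 lower. H2-DMa, a chain of the peptide-exchange factor of class II molecules, fell, from 118, 84.8 and 103.8 in wild type to 49.3, 41.7 and 55.8 on the DKO-labelled arrays. Every array of that group lay below every wild type array, and the log2 change was -0.86 (SE 0.16 and, by limma, adjusted p = 0.0454). A very dim H2-DMa probe set below the filter, at most 10.2 on any array, overlapped and differed by 0.22 with no filter (SE 0.17). The other tested class II gene, Cd74, overlapped and differed by 0.28 (SE 0.20). Ptpn2, a phosphatase that turns off JAK and STAT signalling, fell on 1 probe set, from 503, 449.9 and 474.5 to 278, 349.7 and 252 (log2 -0.68, SE 0.13, limma adjusted p = 0.0453). A second tested Ptpn2 probe set differed by -0.13 (SE 0.11) and did not pass.

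Both calls were lost in most fits with fewer arrays. H2-DMa no longer passed without wild type replicate 1 (limma adjusted p = 0.112) or 3 (0.0902) and without DKO replicate 1 (0.103), 2 (0.169) or 3 (0.117), in a range of 0.0347 to 0.294 over the alternatives. Ptpn2 no longer passed without wild type replicate 1 (limma adjusted p = 0.107) or 3 (0.0825) and without DKO replicate 1 (0.113) or 3 (0.187), in a range of 0.0311 to 0.187. Ptpn2 also missed the threshold with quantile normalization (0.0533). With the replicate number as a block both calls were lost (adjusted p = 0.0540 and 0.0628).

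None of the 6 tested genes listed as further class I presentation genes passed, most of which encode chaperones or proteasome proteins. Of their 13 tested probe sets 7 did not overlap between the groups, all of them lower, where 10.7% of all tested probe sets were so. These were 3 of Calr, 2 of Psme3, 1 of Pdia3 and 1 of Canx. None was of H2-M3, the only class I chain among the 6 genes, and the list was written with results of these data known. Calr, which encodes the chaperone calreticulin, read 1929, 2120 and 2348 in wild type against 1726, 1547 and 1453 on the DKO-labelled arrays, below wild type on every array. Its 3 probe sets differed by -0.43, -0.45 and -0.47, with limma adjusted p of 0.107, 0.0586 and 0.0612. Calr passed on 1 or more probe sets with quantile normalization (lowest adjusted p = 0.0487), the stricter filter (0.0470) and array weights (0.0481), in a range of 0.0470 to 0.363 over all settings. Pdia3, a disulfide isomerase of the loading complex, read 1307, 1406 and 1185 in wild type against 1066, 1046 and 970.4 in the other group, a log2 difference of -0.33 (SE 0.10 and, by limma, adjusted p = 0.154). Psme3, a subunit of another proteasome activator, differed by -0.30 (SE 0.11) and -0.27 (SE 0.12). Canx, which encodes the chaperone calnexin, overlapped on its 2 brighter probe sets (-0.17 and -0.11) and did not on the dimmest (-0.42, SE 0.17). Psma7, a core proteasome subunit, differed by -0.01 and the class I gene H2-M3 by 0.10, and both overlapped.

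Microglia markers stood lower beside these genes, in 13 of 13 measured with 0 past the threshold, where 48.4% of all tested probe sets stood lower. Their per-array median was 0.14, -0.10 and -0.02 in wild type and -0.12, -0.54 and -0.55 on the DKO-labelled arrays, and their summed signal was 4369 to 5264 and 3280 to 4275. Neither overlapped between the groups, although DKO replicate 1 lay next to wild type replicate 2. The leukocyte marker Ptprc read 68.4, 56.9 and 62.04 in wild type against 37.8, 34.9 and 24.02, a log2 difference of -0.71 (SE 0.17 and, by limma, adjusted p = 0.0894). Of 7 astrocyte markers 1 passed, where 1.02% of all tested probe sets did. This was Aqp4, a water channel, which fell on 3 of 3 probe sets (brightest 967 ± 7.67 to 495 ± 100.3, SD, n = 3 each, log2 -0.96, limma adjusted p = 0.0139). Gfap, the astrocyte filament protein, differed by -0.83 on its brightest probe set without overlap (limma adjusted p = 0.258). The nearest Gfap values were 609.3 in wild type and 595.5 in the other group, and another Gfap probe set overlapped. Other astrocyte markers stood higher without overlap on the brightest probe set, Gjb6 by 0.58 and Slc1a3 by 0.38 (limma adjusted p = 0.109 and 0.118). Of all tested probe sets 22.3% had no overlap. The astrocyte list as a whole had 4 of 7 lower, and its per-array medians overlapped. The part of microglia, leukocytes or astrocytes in the H2-DMa, B2m, Tapbp and Calr values was not tested. The per-array medians of 9 endothelial markers overlapped, at -0.18 to 0.15 in wild type and -0.004 to 0.23 in the other group, and 4 of the 9 markers were lower. On the brightest probe set Slc2a1 stood higher without overlap by 0.38 and Flt1 by 0.31 (limma adjusted p = 0.212 and 0.316).

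**Figure D5:**
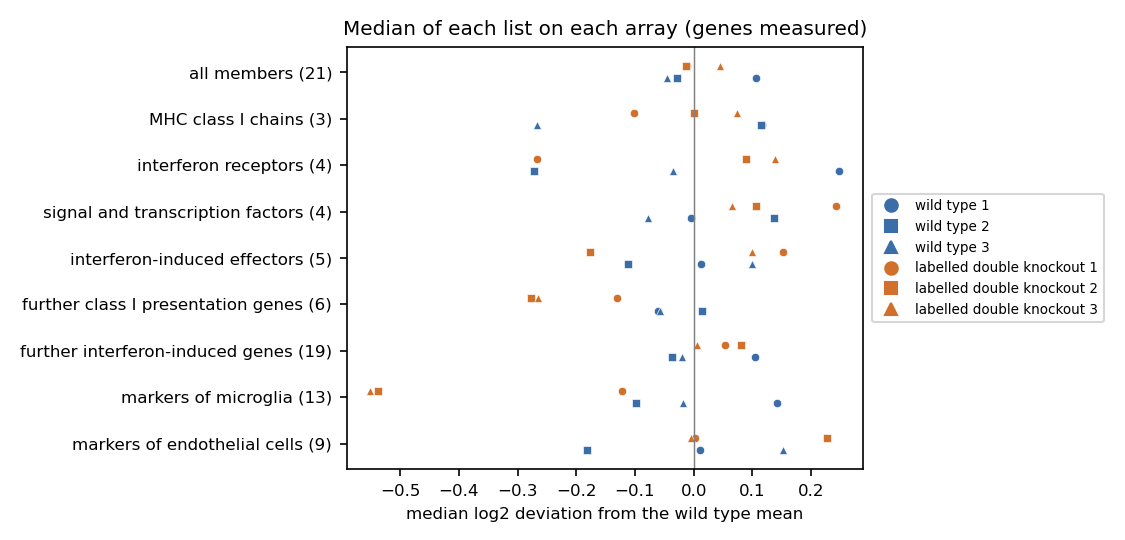
Median log2 deviation from the wild type mean over the measured genes of each list (number of genes in brackets), on each array (blue wild type, orange labelled double knockout). The medians of all 21 members lie between -0.05 and 0.11 with the groups intermingled, while those of microglia markers and of further class I presentation genes (mostly chaperone and proteasome genes) are lower on all 3 arrays labelled double knockout.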

How the data were processed

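For each of the 6 arrays the authors deposited 1 linear intensity per probe set, already summarised. How it was summarised is not given in the sources used here. Trimmed by 2% at each end, every array had a mean of 150.0, so total RNA cannot be compared. Columns of no sample numbered 0. Probe sets were named through the platform annotation (1 symbol for 34945, several for 932, none for 9160), with symbols updated by gene number from RefSeq on GRCm38.p6. Signals under 1 were set to 1 and log2(signal + 16) was taken. Probe sets above the median mean log2 signal went into limma 3.58.1 under R 4.3.3 (group as the only term, intensity trend), with two-sided p-values adjusted by the Benjamini-Hochberg method over all 22518. Exact permutation of 3 against 3 arrays gives at least p = 0.1 and was not used. The step was tested on simulated data. All 35 members are named, with array values for the brightest tested probe set and for others that differ; further pathway genes are named where they passed, and others chosen after their values were seen. Members and lists were chosen with earlier results of these data known. Alternatives were other pseudocounts, normalizations, filters, variance models and array weights, each array left out, and the replicate number as a block. Python 3.11.15 and matplotlib 3.10.9 made the figures. Some motif matches and sequences are not reported here.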

Additional observations from a re-analysis of the deposited data

How the results depend on the processing

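No member probe set passed under any of the 17 alternatives, the lowest adjusted p being 0.0820 (Ifnar2, no intensity trend). Of 493 such values of the 30 probe sets, 464 kept their sign. The sign turned when 1 array was left out for Psme1 (-0.135 to 0.103), H2-K1 (-0.049 to 0.071), Ifngr1 (-0.153 to 0.317), Ifngr2 (-0.240 to 0.204), Irf1 (-0.219 to 0.049), Irf3 (-0.093 to 0.221), Ifih1 (-0.059 to 0.105), Ifitm2 (-0.233 to 0.111), Ifitm3 (-0.055 to 0.126) and dimmer probe sets of H2-D1 (-0.314 to 0.087) and Ifngr2 (-0.988 to 0.087). With wild type replicate 1 and also replicate 2 of the double knockout label left out, values were 0.158 for Psme1, 0.030 for the H2-D1 probe set, 0.159 for Ifngr2, 0.102 for Irf1, -0.089 for Ifih1, 0.065 for Ifitm2 and 0.191 for Ifitm3. The count over all probe sets became 10 with no filter, 131 with no intensity trend, 34 to 292 without 1 array and 12 without that pair of arrays, which moved the members' median to 0.102 (-0.040 to 0.060 without 1 array). The pathway count of 2 became 0 with no filter, 1 with no intensity trend, 0 to 2 without 1 array and 0 without that pair; the cause was not tested. It stayed 2 with quantile normalization (Calr and H2-DMa) and the stricter filter (Calr and Ptpn2), and was 3 with array weights. Same-numbered arrays did not deviate together (r = -0.147, 0.001 and -0.101); with the replicate block 182 probe sets passed, with 0 members and 0 pathway genes. The Ifnar2 ratio, added after the data were seen, stayed above the threshold (adjusted p = 0.121 to 0.349).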
